A study of Rattus norvegicus with 4 samples.

Results

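The genes described here are 8 transcripts of non-collagen proteins of cartilage: Comp, Matn1, Matn3, Matn4, Ucma, Cilp, Cilp2 and Prg4. They were chosen by symbol, and all 8 were found among the 24005 genes of the count table. All 8 were also kept by the filter on low counts, among 15282 genes tested. PolyA RNA came from cartilage. The animals were male rats of Sprague Dawley stock, which is outbred, 8 to 12 weeks old and 140 to 230 g in weight. The control group held 2 libraries labelled healthy with the treatment control. The osteoarthritis group held 2 libraries labelled osteoarthritis with the treatment XGS, which stands for Xiaogu San, a herbal preparation. By the title, joint disease had been induced with monosodium iodoacetate, which blocks glycolysis and kills chondrocytes after injection into the joint. No library is labelled as diseased without XGS, so disease and treatment cannot be told apart. All 4 libraries are labelled rat, while the series' design text calls the normal animals mice. The labels do not say whether each library is a separate animal, so p-values measure only the spread between the 4 samples, and that spread may be technical.

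Cartilage resists load through a collagen network filled with aggrecan, and a set of non-collagen proteins ties this network together or coats its surface. Comp, a pentamer of the thrombospondin family, and the matrilins, which carry von Willebrand factor A domains, bridge collagen fibrils and other matrix parts. Ucma, also called Gla-rich protein, is a small secreted protein whose glutamates are carboxylated with vitamin K. Cilp and Cilp2 are secreted glycoproteins of the middle layers of cartilage, and Prg4 encodes lubricin, the boundary lubricant made by surface chondrocytes and by the lining of the joint capsule.

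Libraries held 24492412 to 28270779 counts, and the 8 genes together took 1.18% and 0.566% of the counts in control replicates 1 and 2, and 0.0790% and 0.674% in osteoarthritis replicates 1 and 2. The libraries stood apart in markers of several tissues, given here as summed FPKM (fragments per length and depth) of fixed lists. The 7 chondrocyte markers summed to 3044 and 5364 in control and to 879 and 473 in osteoarthritis, and all 7 were detected in every library. Col2a1 made up most of that sum except in osteoarthritis replicate 2, with 2813 and 4953 FPKM in control and 827 and 68.7 in osteoarthritis. In osteoarthritis replicate 2 Acan and Sox9 went the other way, with 347 and 41.7 FPKM, above both controls. The 6 adipocyte markers summed to 7322 in osteoarthritis replicate 1 and to 37.1 in replicate 2, against 1521 and 347 in control, with 1 of the 6, Lep, at 0 in control replicate 1. The 5 tendon and ligament markers summed to 1380 in osteoarthritis replicate 2 and to 47.1 in replicate 1, against 151 and 111 in control, with none at 0. The 5 synovial lining markers summed to 123 and 98.7 in control and to 46.8 and 128 in osteoarthritis. The 6 bone cell markers summed to 424 and 1813 in control and to 24.5 and 30.0 in osteoarthritis. The 5 red cell markers summed to 55556 and 42091 in control and to 800 and 1175 in osteoarthritis, and the 5 neutrophil lineage markers to 4152 and 6478 against 60.5 and 276. The 6 skeletal muscle markers summed to 1638 in control replicate 1 and to 76.4 to 199 in the other 3 libraries. The part of these tissues in the results below was not tested. In bulk tissue, fewer cells of a type and less RNA per cell cannot be told apart.

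**Figure D1:**
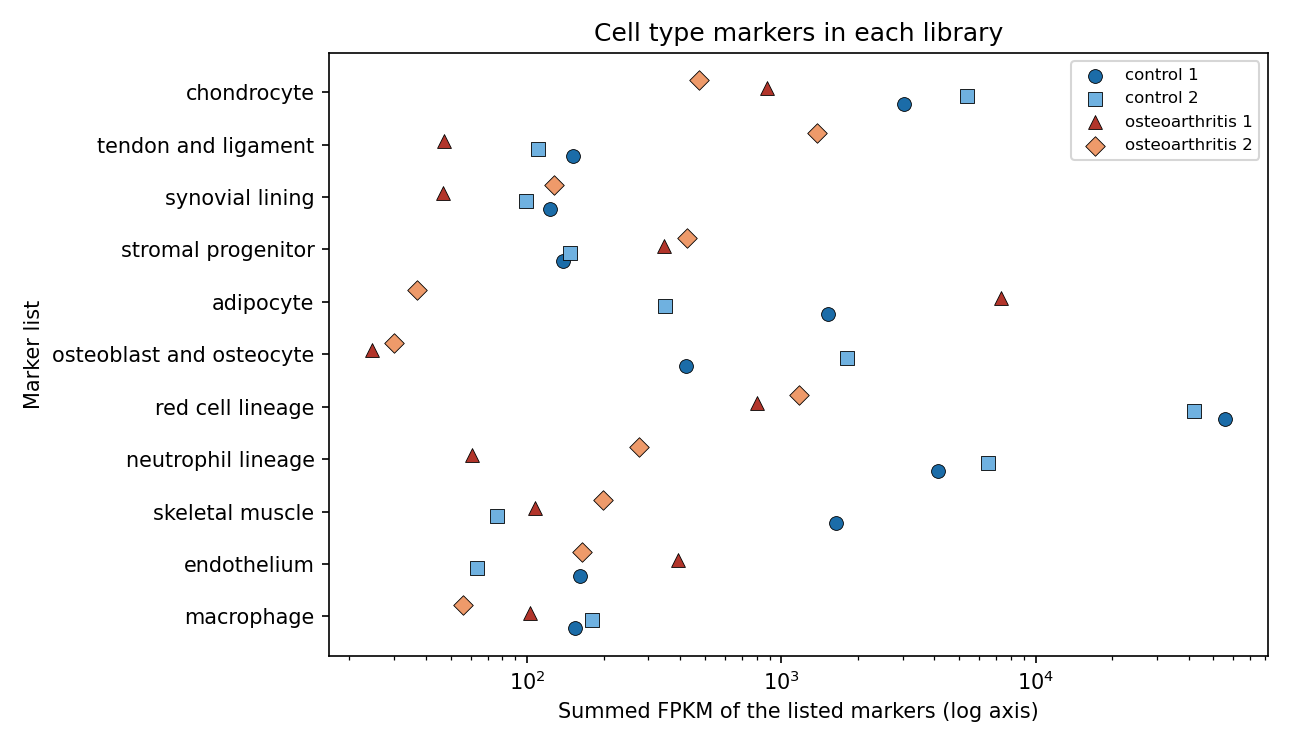
Summed FPKM of each fixed marker list (log axis) in the 4 libraries, 1 point per library. Osteoarthritis replicate 1 has the highest adipocyte sum (7322) and osteoarthritis replicate 2 the highest tendon and ligament sum (1380). Both lie below both controls for chondrocyte, bone, red cell, neutrophil and macrophage sums, and above both for endothelium and stromal progenitor sums.

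The comparison asked how these transcripts differed between control and osteoarthritis cartilage. Ucma, Prg4, Cilp and Matn1 had lower CPM (counts scaled to a common depth, with library sizes corrected for composition by TMM) in each osteoarthritis library than in either control. Comp, Cilp2 and Matn3 were lowest in osteoarthritis replicate 1 only, and Matn4 was highest in osteoarthritis replicate 2. With an adjusted p under 0.05 as the threshold, edgeR's quasi-likelihood test called 0 of the 8 genes, and 0 of all 15282 genes in either direction (0% higher and 0% lower, smallest adjusted p = 0.0824). Without adjustment, 3 of the 8 had a p under 0.05 in that test and were lower, Ucma, Prg4 and Cilp, against 11.2% of all genes, and 0 higher, against 12.2%. DESeq2 called the same 3 lower, against 8.26% of all genes, and 0 higher, against 7.24%. The likelihood ratio test of edgeR also called these 3 lower (6.4% of all genes) and 0 higher (6.31%). Both osteoarthritis libraries lay below both controls for 4 of the 8, against 26.5% of all tested genes, and above both for 0, against 30%. Of those 4, Matn1 passed the filter on low counts through the controls alone and so had to differ. The fitted log2 fold change, osteoarthritis over control, was below 0 for 7 of the 8, against 44.9% of all genes, and above 0 for 1, against 55.1%, with a median of -1.93, against 0.15 for all genes. The calls changed when either osteoarthritis library was left out. Without replicate 2, edgeR called 6 of the 8 lower, all but Matn1 and Matn4, against 5.73% of all genes, and 0 higher, against 4.88%. Without replicate 1 it called Ucma, Prg4 and Cilp lower, against 6.95%, and Matn4 higher, against 8.16%. Without either control it called 0 of the 8 and 0% of all genes in each direction. Such fits take the spread of the remaining library's group from the group with 2 libraries.

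**Figure D2:**
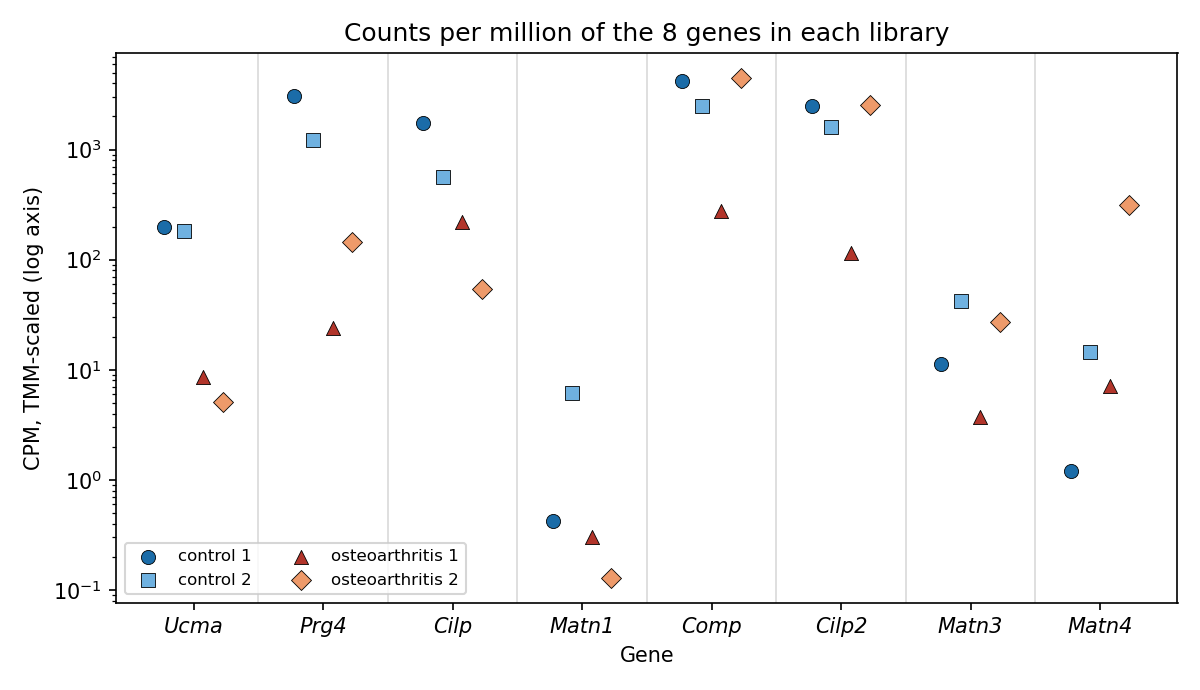
CPM of each gene (log axis) in the 4 libraries, 1 point per library, with circles and squares for control and triangles and diamonds for osteoarthritis. For Ucma, Prg4, Cilp and Matn1 both osteoarthritis points lie below both control points, and for Comp, Cilp2, Matn3 and Matn4 the groups overlap.

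Prg4, which encodes lubricin, stood at 3036 and 1213 CPM in control against 23.9 and 146 in osteoarthritis. Both osteoarthritis libraries lay well below both controls, and the lower control was 8.32 times the higher osteoarthritis library. Group means were 2124 ± 1289 and 84.8 ± 86.2 CPM (SD, n = 2 each). The fit gave a log2 fold change of -4.65 ± 1.11 (SE), with an adjusted p = 0.115 by edgeR's quasi-likelihood test and 2.02e-06 by DESeq2. The log2 fold change was -3.88 (adjusted p = 0.00135) without osteoarthritis replicate 1 and -6.46 (adjusted p = 1.57e-06) without replicate 2, by the same edgeR test. Without control replicate 1 or 2 it was -3.90 or -5.15, and neither passed (adjusted p = 0.305 and 0.325). Prg4 had the same direction in each of these fits. Synovial lining markers, which mark another source of lubricin, were mixed. Of the 5, 3 lay below both controls in both osteoarthritis libraries, Clic5, Has1 and Col22a1, against 26.5% of all tested genes. Cd55 and Pdpn overlapped between the groups, and Pdpn was highest in osteoarthritis replicate 2. The list's median log2 fold change was -1.81. The part of the synovial lining in the Prg4 level was not tested.

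Ucma, the Gla-rich protein of cartilage, gave 196 and 184 CPM in control against 8.62 and 5.06 in osteoarthritis. The controls lay close together and far above both osteoarthritis libraries, with a ratio of 21.3 between the lower control and the higher osteoarthritis library. The means were 189.97 ± 8.55 and 6.84 ± 2.52 CPM (SD, n = 2 each). Among the 8 genes, Ucma had the smallest standard error and p, with a log2 fold change of -4.79 ± 0.44, an adjusted p = 0.0824 by edgeR's quasi-likelihood test and an adjusted p = 1.24e-21 by DESeq2. Leaving out each library in turn gave -5.26 to -4.45. The adjusted p was 0.00012 without osteoarthritis replicate 1 and 5.86e-06 without replicate 2, and 0.26 and 0.317 without control replicate 1 and 2. Ucma was also low relative to the main cartilage collagen in osteoarthritis replicate 1: the FPKM ratio of Ucma to Col2a1 was 0.0709 and 0.0345 in control and 0.0126 and 0.0661 in osteoarthritis. In osteoarthritis replicate 2 that ratio lay between the controls.

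Upstream sequences of Ucma and Comp are shown because these genes gave the contrasting patterns, Ucma low in both osteoarthritis libraries and Comp in 1 of them. Each is the 250 bases before the transcript start in RefSeq, assembly GRCr8, printed in the direction of transcription from the minus strand. They lie at chr17:78212997-78213246 for Ucma and chr16:19089549-19089798 for Comp. Capitals mark the only matches to the motifs listed after them.
Ucma: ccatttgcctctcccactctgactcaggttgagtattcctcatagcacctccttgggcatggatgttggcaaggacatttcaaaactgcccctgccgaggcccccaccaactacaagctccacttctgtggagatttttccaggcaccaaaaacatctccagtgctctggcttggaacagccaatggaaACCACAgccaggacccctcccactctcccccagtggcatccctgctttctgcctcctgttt
Comp: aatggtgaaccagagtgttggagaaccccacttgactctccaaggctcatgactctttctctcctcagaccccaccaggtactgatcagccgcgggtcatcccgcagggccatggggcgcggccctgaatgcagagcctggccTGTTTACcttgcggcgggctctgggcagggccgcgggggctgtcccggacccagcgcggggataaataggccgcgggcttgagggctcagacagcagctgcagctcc
Promoters were found for 6 of the 8 genes: Comp, Matn3, Ucma, Cilp, Cilp2 and Prg4. Searched on both strands, the SOX core ACAATG was in 0 of the 6, against 11.1% of 33469 promoters of the same length, and ACAAAG was in Prg4 only, against 16.3%. TGTGGT, the RUNX core, was in Ucma and Cilp (14.5% of all promoters). TGTTTAC, a FOXO site, was in Comp (3.21%), TATAAA was in Prg4 (12.9%), and TGACG, part of the cyclic AMP response element, was in 0 of the 6 (18.2%). A match describes letters in this window and not a bound site. The GC content was 54.4% for Ucma, 64.8% for Comp and for Cilp2, and 38.8% for Prg4, against a median of 51.2% over all promoters.

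Cilp, the cartilage intermediate layer protein, was at 1758 and 568 CPM in control against 221 and 54.1 in osteoarthritis. Both osteoarthritis libraries lay below both controls, and replicate 2 was the lowest. The log2 fold change was -3.08 ± 0.94, with an adjusted p = 0.155 by edgeR's quasi-likelihood test and 0.00216 by DESeq2. Leaving out each library in turn gave -4.43 to -2.09, and edgeR called it without osteoarthritis replicate 1 (adjusted p = 0.00115) and without replicate 2 (0.00881), but not without control replicate 1 or 2 (0.382 and 0.339). The controls themselves differed 3.10-fold, which is a larger spread than for Ucma.

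Cilp2, a close relative of Cilp, did not follow it. Its CPM values were 2507 and 1609 in control and 114 and 2559 in osteoarthritis, so replicate 1 lay far below the controls and replicate 2 slightly above both. By FPKM, which has no TMM scaling, osteoarthritis replicate 2 (557) lay between the controls (619 and 363). The log2 fold change of -0.62 ± 1.30 (adjusted p = 0.824, edgeR quasi-likelihood) averages these libraries. Leaving out osteoarthritis replicate 1 turned it to 0.29, and leaving out replicate 2 gave -4.16 (adjusted p = 1.86e-05). Within a library, where scaling plays no part, the FPKM ratio of Cilp to Cilp2 was 0.695 and 0.350 in control, 1.92 in osteoarthritis replicate 1 and 0.0210 in replicate 2.

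For Comp the control values were 4216 and 2506 CPM, against 278 and 4468 in osteoarthritis. By CPM, osteoarthritis replicate 2 was thus the highest of the 4 libraries and replicate 1 the lowest, with a 16.1-fold difference between them. By FPKM, which has no TMM scaling, control replicate 1 was the highest, with 1692 against 1581 in osteoarthritis replicate 2. The log2 fold change was -0.50 ± 1.22, with an adjusted p = 0.853 by edgeR's quasi-likelihood test. Leaving out osteoarthritis replicate 1 gave 0.39 (adjusted p = 0.672) and leaving out replicate 2 gave -3.58 (adjusted p = 7.42e-05), so the direction rests on which osteoarthritis library is used. Comp and Cilp2 kept nearly the same proportion across the 4 libraries: the FPKM ratio of Comp to Cilp2 was 2.73 and 2.53 in control and 3.97 and 2.84 in osteoarthritis, a 1.57-fold range. Among the 28 pairs of the 8 genes, they had the smallest root mean square difference, 0.24, between centred log2(FPKM + 1) profiles. Comp is also made in tendon and ligament. The tendon and ligament sum was highest in osteoarthritis replicate 2 and lowest in replicate 1. In FPKM, the unit of that sum, Comp was also lowest in osteoarthritis replicate 1 but highest in control replicate 1. Thbs4 was the largest part of that sum, with 1028 FPKM in osteoarthritis replicate 2 and 22.3 in replicate 1. Tnmd alone of these markers was not lowest in osteoarthritis replicate 1, with 21.3 FPKM against 8.15 and 5.12 in control. The part of tendon and ligament in the Comp level was not tested. The FPKM ratio of Comp to Thbs4, a tendon and ligament marker of the same family, was 14.3 and 9.86 in control and 5.97 and 1.54 in osteoarthritis. Relative to Col2a1, Comp stood at 0.601 and 0.185 in control, 0.161 in osteoarthritis replicate 1 and 23.0 in replicate 2.

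**Figure D3:**
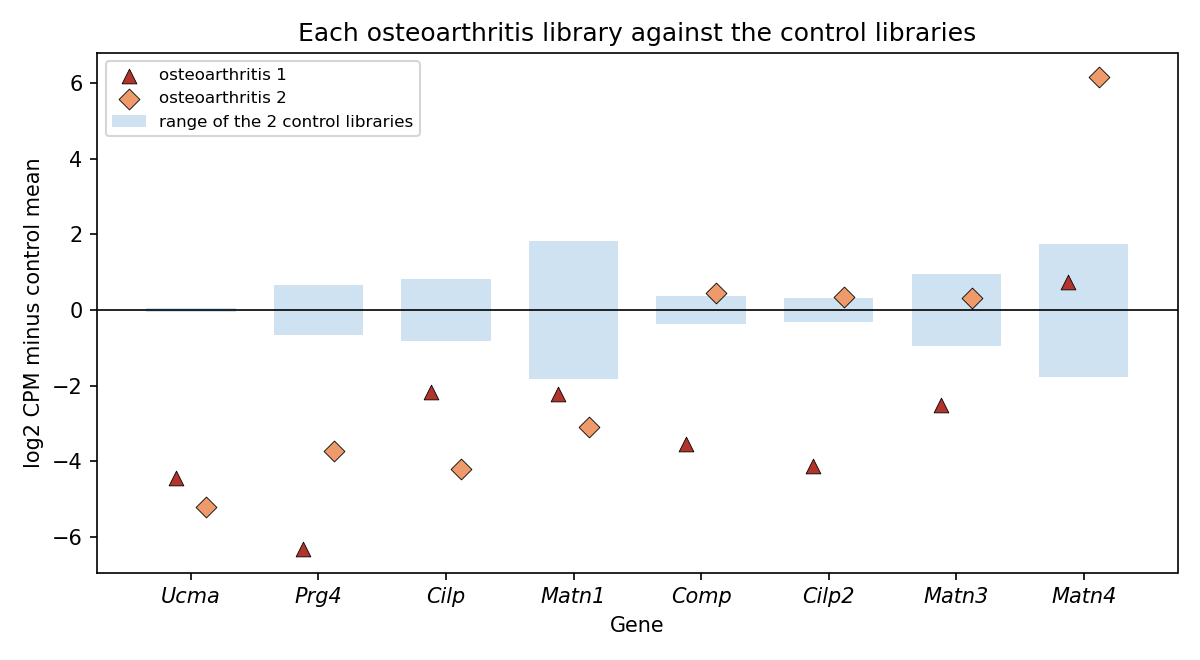
Difference in log2 CPM between each osteoarthritis library (triangles, diamonds) and the control mean, with bars for the range of the 2 control libraries. Ucma, Prg4, Cilp and Matn1 lie below the bar in both libraries, Comp and Cilp2 are far below it in replicate 1 (-3.55 and -4.14) and just above it in replicate 2 (0.46 and 0.35), and Matn4 is at 6.18 in replicate 2.

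The 3 matrilins each had a pattern of their own. Matn1, the matrilin of growth plate and airway cartilage, was barely detected outside control replicate 2. It had 12 and 160 counts in control and 9 and 3 in osteoarthritis, or 0.422, 6.14, 0.305 and 0.130 CPM. The 95% exact Poisson intervals were 6.20 to 21.0 counts in control replicate 1, 4.12 to 17.1 in osteoarthritis replicate 1 and 0.619 to 8.77 in osteoarthritis replicate 2, and cover counting error only. At this depth the interval of control replicate 1 overlapped those of both osteoarthritis libraries, although the CPM values of the groups do not overlap. Its log2 fold change was -3.88 ± 1.75 (adjusted p = 0.259, edgeR quasi-likelihood), and -0.92 without control replicate 2. The bone cell sum (1813 FPKM) and the chondrocyte sum (5364 FPKM) were also highest in control replicate 2. Acan and Sox9 of the chondrocyte list were instead highest in osteoarthritis replicate 2. The part of these cells in the Matn1 level was not tested.

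Matn3, whose mutations in people cause a growth disorder of the epiphyses, was measured at 11.3 and 42.1 CPM in control against 3.73 and 27.4 in osteoarthritis. The groups overlapped, with osteoarthritis replicate 2 between the controls. The log2 fold change was -0.78 ± 1.06 (adjusted p = 0.711, edgeR quasi-likelihood). It was -2.83 (adjusted p = 0.018) without osteoarthritis replicate 2, and 0.48 without control replicate 2.

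Matn4, the most widely expressed matrilin of the 3, was the one gene of the 8 with a positive log2 fold change, and 1 library carried it. It had 1.20 and 14.5 CPM in control, 7.12 in osteoarthritis replicate 1 and 311 in replicate 2, which was 43.7 times replicate 1. Replicate 1 lay between the controls. The log2 fold change was 4.34 ± 1.96 (adjusted p = 0.261, edgeR quasi-likelihood) with all libraries, 5.24 (adjusted p = 0.00157) without osteoarthritis replicate 1 and -0.13 (adjusted p = 0.985) without replicate 2. In osteoarthritis replicate 2 the tendon and ligament markers other than Mkx were also at their highest, including Thbs4 at 3719 CPM against 378, 326 and 59.7 in the other libraries. The FPKM ratio of Matn4 to Thbs4 was 0.00445 and 0.0626 in control and 0.168 and 0.118 in osteoarthritis. That ratio lay above both controls in both osteoarthritis libraries, but in replicate 1 Thbs4 was below both controls and Matn4 between them. The ratio of Matn4 to Matn3 was 0.0928 and 0.301 in control and 1.67 and 9.92 in osteoarthritis, so Matn3 was the more abundant of the pair per length in control and Matn4 in osteoarthritis.

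**Figure D4:**
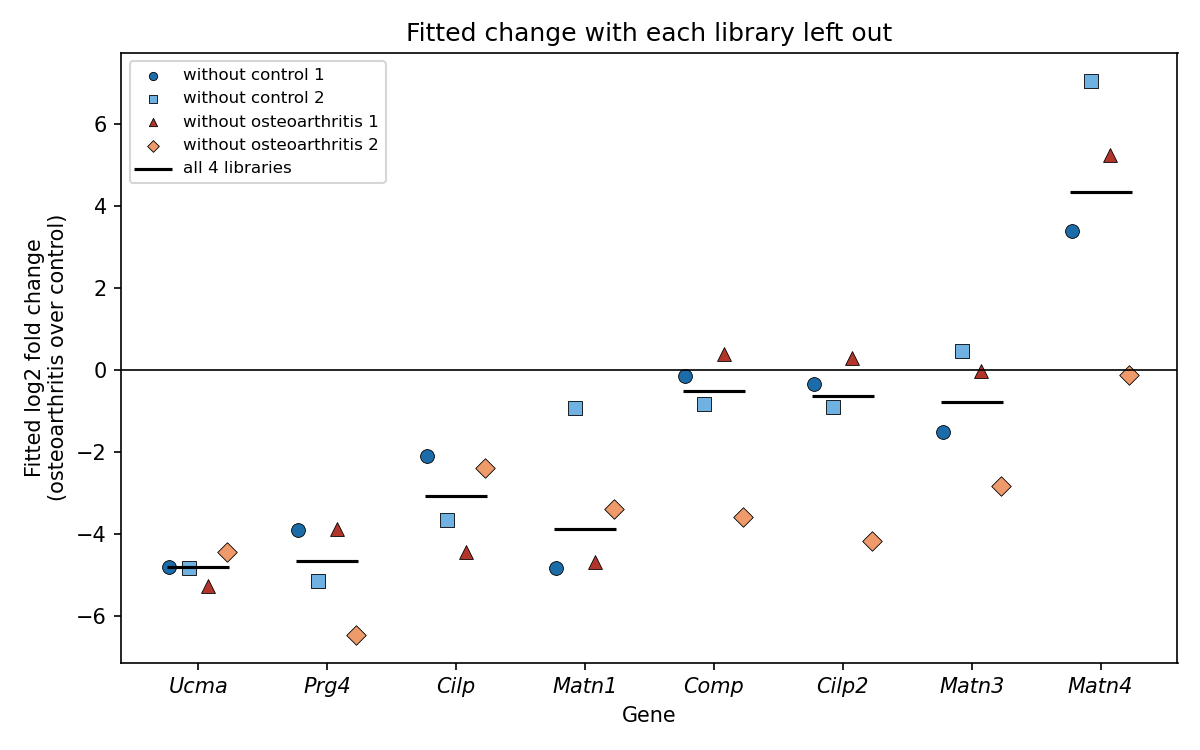
Fitted log2 fold change of each gene with all 4 libraries (black dash) and with each library left out (coloured points). Ucma stays between -5.26 and -4.45 and Prg4 between -6.46 and -3.88, while Comp, Cilp2, Matn3 and Matn4 cross 0.

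Levels can be compared between genes only per length, as FPKM within a library. In control replicate 1 the order was Comp (1692 FPKM), Prg4 (831), Cilp2 (619), Cilp (430), Ucma (199), Matn3 (5.68), Matn4 (0.527) and Matn1 (0.226). Control replicate 2 placed Comp (919) above Cilp2 (363), Prg4 (304), Ucma (171) and Cilp (127), and then Matn3 (19.4), Matn4 (5.83) and Matn1 (2.996). Comp was first and Matn1 last in both, while Prg4 and Cilp2, and Cilp and Ucma, changed places. In osteoarthritis replicate 1 the order began with Comp (133), Cilp (64.4), Cilp2 (33.5) and Ucma (10.5), followed by Prg4 (7.81), Matn4 (3.74), Matn3 (2.24) and Matn1 (0.195). In osteoarthritis replicate 2 it began with Comp (1581), Cilp2 (557) and Matn4 (121), followed by Prg4 (35.2), Matn3 (12.2), Cilp (11.7), Ucma (4.54) and Matn1 (0.0611). Comp was the 22nd most abundant gene of all per length in that library, and the 39th, 104th and 495th in control replicates 1 and 2 and osteoarthritis replicate 1.

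The make-up of the 8 genes shifted accordingly. Lubricin made up 22.0% and 15.9% of their summed FPKM in control and 3.06% and 1.52% in osteoarthritis. Comp made up 44.8% and 48.1% in control and 52.1% and 68.1% in osteoarthritis. Cilp stood at 25.2% of the sum in osteoarthritis replicate 1 and at 0.503% in replicate 2, against 11.4% and 6.64% in control. Ucma made up 5.28% and 8.95% in control and 4.09% and 0.195% in osteoarthritis. A share depends on the other 7 genes, and no test was made on it.

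**Figure D5:**
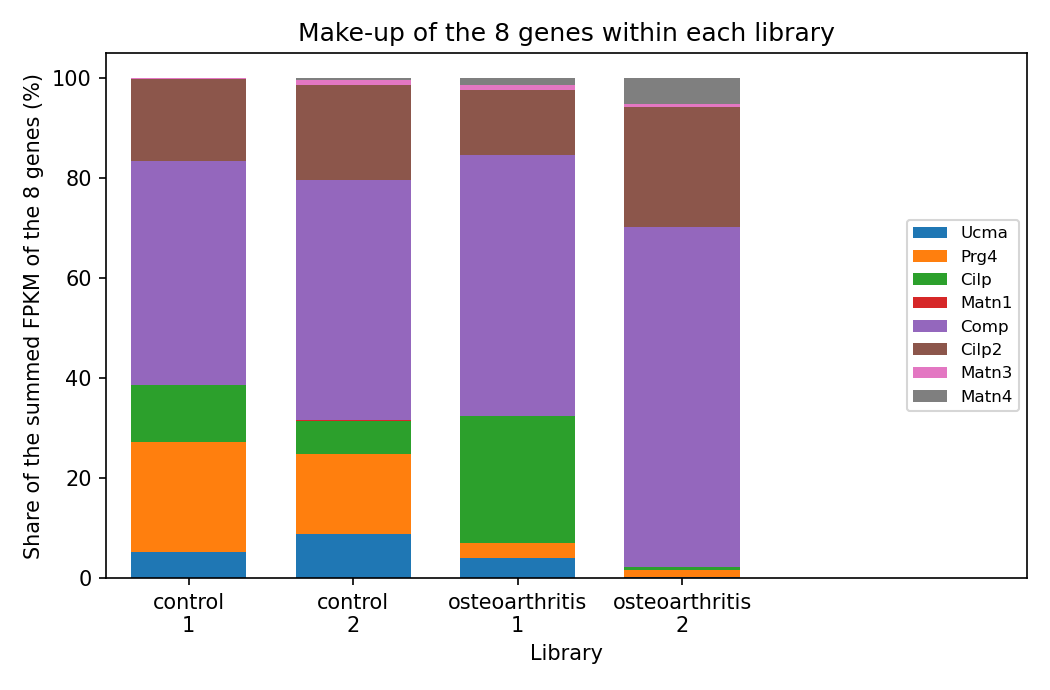
Stacked share (%) of the summed FPKM of the 8 genes taken by each gene in each library. The Prg4 segment is 22.0% and 15.9% in control and 3.06% and 1.52% in osteoarthritis, and Matn4 is visible as 5.20% in osteoarthritis replicate 2.

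Each of the 8 genes varied more across the 4 libraries than the typical gene. The range of log2 CPM was 3.47 (Matn3) to 7.94 (Matn4), against a median of 1.67 over all tested genes. Only 0.582% of the tested genes had a larger range than Matn4 and 1.44% a larger one than Prg4, while 19.6% had a larger one than Matn3.

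Of 20 other cartilage matrix genes, 19 were tested, 15 lay below both controls (26.5% of all tested genes) and 0 above both (30%). The quasi-likelihood test of edgeR called 0 of them and 0% of all genes. DESeq2 called 14 lower (8.26% of all genes) and 0 higher (7.24%), and the median log2 fold change was -2.95, against 0.15 for all tested genes. Snorc, a proteoglycan of chondrocytes listed under an older identifier, stood at 205 and 401 CPM in control against 4.10 and 1.64 in osteoarthritis (log2 fold change -6.71). Clec3a, a lectin of cartilage, was at -4.72, Chad, which binds chondrocytes to collagen, at -4.69, and Hapln1, the link protein, at -2.69. Col2a1, the main cartilage collagen, stood at 13919 and 26813 CPM in control against 3431 and 385 in osteoarthritis. It was lowest in osteoarthritis replicate 2, the library where Comp and Cilp2 were highest by CPM. By FPKM, Comp and Cilp2 were highest in control replicate 1. Acan, the aggrecan core protein, stood at 493 and 587 CPM in control against 70.9 and 2703 in osteoarthritis, low in replicate 1 and high in replicate 2 like Comp.

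The 5 relatives of these genes were Matn2 and the thrombospondins Thbs1, Thbs2, Thbs3 and Thbs4. All 5 had positive log2 fold changes, against 55.1% of all tested genes, with a median of 2.43, against 0.15. EdgeR's quasi-likelihood test called 0 of them and 0% of all genes. All 5 overlapped between the groups, while 30% of all tested genes lay above both controls and 26.5% below both. The median of the 5 was -0.997 without osteoarthritis replicate 2. Matn2, the matrilin of many connective tissues, had 34.7 and 40.3 CPM in control against 40.1 and 436 in osteoarthritis. It was the 1 relative DESeq2 called higher (adjusted p = 0.0354), against 7.24% of all genes, and 0 were called lower, against 8.26%. Thbs2 stood at 426 and 235 CPM in control against 132 and 5066 in osteoarthritis. Thbs1 was at 2.02 and Thbs3 at 1.51 on the log2 scale.

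Of 13 regulators of such genes, 3 lay above both controls and 3 below both, near or under the shares of all tested genes (30% and 26.5%), and the median log2 fold change was -0.35. That median turned positive without osteoarthritis replicate 1 (0.23) and without control replicate 1 (0.46). EdgeR called 0 of them and 0% of all genes, and DESeq2 called 2 higher and 1 lower (7.24% and 8.26% of all genes). Sox9, the master transcription factor of chondrocytes, stood at 28.3 and 41.3 CPM in control against 19.5 and 189 in osteoarthritis. Its partner Sox6 had 19.6 and 20.4 against 6.51 and 7.39, below both controls in both libraries (log2 fold change -1.52, adjusted p = 0.141 by edgeR). Nkx3-2, a repressor that keeps chondrocytes immature, was at -2.06. Erg, a transcription factor of joint surface cartilage and of vessel walls, was at 1.45, and the receptor Tgfbr2, which carries TGF-beta signals, also at 1.45. The 5 endothelium markers summed to 161 and 63.3 FPKM in control and to 394 and 164 in osteoarthritis. Of the 5, 3 lay above both controls in both osteoarthritis libraries (30% of all tested genes), Pecam1, Cdh5 and Tek, while Vwf and Kdr overlapped. The part of endothelium in the Erg level was not tested.

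The 12 proteases included 6 above both controls (30% of all tested genes) and 5 below both (26.5%). EdgeR called 0 of them and 0% of all genes, and DESeq2 called 4 higher (7.24% of all genes) and 5 lower (8.26%). Adamts12, a metalloproteinase that cleaves COMP, stood at 29.6 and 18.6 CPM in control against 90.6 and 175 in osteoarthritis (log2 fold change 2.46 ± 0.48, adjusted p = 0.0923 by edgeR's quasi-likelihood test). Elane and Ctsg, the elastase and cathepsin G of neutrophils, were at -5.41 and -5.22, and Mmp9 at -4.52. The 4 tested neutrophil lineage markers, of which Elane is 1, lay below both controls in both osteoarthritis libraries (26.5% of all tested genes). The other listed marker, Ltf, was not tested, with 17 counts in osteoarthritis replicate 1 and 0 elsewhere.

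The 3 genes nearest to each of the 8 were found by the root mean square difference of centred log2(FPKM + 1) over the 4 libraries, among 8825 other tested genes with a mean of at least 5 FPKM (8826 for Matn1, which lay under that mean). Comp was nearest to Cilp2 (0.24), Rplp2 (0.24) and Slc16a3 (0.27), and Cilp2 to Comp (0.24), Rplp2 (0.29) and Slc16a3 (0.45). Ucma was nearest to RGD1564861 (0.16), Clec3a (0.20) and Meltf (0.23). Prg4 was nearest to RatNP-3b (0.32), Alas2 (0.43) and Ppbp (0.52), of which Alas2 belongs to the red cell markers. The red cell markers and the 4 tested neutrophil lineage markers had the same order within the osteoarthritis group as Prg4, with replicate 1 the lower. Mpo differed little (22.4 and 24.4 FPKM), and the untested Ltf went the other way (17 and 0 counts). Cilp was nearest to Ly6c (0.35), Inmt (0.44) and LOC691921 (0.47). Among the matrilins, Matn1 was nearest to Snx10 (0.18), Arsb (0.23) and RGD1308430 (0.23), Matn3 to Ctsk (0.15), Dck (0.32) and LOC100911372 (0.39), and Matn4 to Dpysl3 (0.38), Fndc1 (0.43) and Col12a1 (0.57). These are likenesses over 4 libraries, and only 2 to 11 of the 24 pairs were found again with 1 library left out.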

How the data were processed

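Cartilage RNA of 4 libraries, 2 control and 2 osteoarthritis, was grouped by the disease label. The deposited values are raw read counts per gene and FPKM. Per the submitters' processing notes, the tools were fastp and TopHat and the genome build hg38, a human build, though the gene symbols are rat symbols. Not given in the sources used here are the counting tool, the annotation and the strandedness, so overlapping genes may share reads. All 67506 deposited FPKM values above 0 could be computed from the count, one length per gene and the library total to a relative difference under 1e-08, so FPKM is no independent measurement.

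The 8 genes, the gene lists, the alternatives and the rule for named genes were chosen with earlier results of these data known. That rule names all 8 genes, the 3 genes nearest to each, in each list up to 4 of smallest unadjusted p, and Col2a1, Acan, Sox9 and Thbs4. The motifs were chosen after seeing the data. Counts were fitted with edgeR 4.0.16 in R 4.3.3: filterByExpr on the groups, TMM scaling, quasi-likelihood F test, two-sided, with Benjamini-Hochberg adjustment over all 15282 genes and a threshold of 0.05. Standard errors are the log2 fold change divided by the root of F. Symbols of list genes were also matched through RefSeq synonyms. Alternatives were DESeq2 1.42.0, limma 3.58.1 (voom on counts, and trend on log2(FPKM + 1) and log2(FPKM + 0.1)), edgeR's likelihood ratio test, 3 other scalings, 2 other filters, and each library left out. Scripts were tested on simulated data. With 2 libraries against 2, the smallest p of an exact permutation test is 0.333, and no such test was run. Libraries held 24492412 to 28270779 counts, and no molecular identifiers are named in the labels, so intervals describe counting error alone. Matplotlib 3.10.9 drew the figures.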

Additional observations from a re-analysis of the deposited data

How the results depend on the processing

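The counts of called genes depended on the tool and filter. Genes called higher and lower numbered 0 and 0 in the quasi-likelihood test, 1107 and 1262 in DESeq2, 965 and 978 in the likelihood ratio test and 677 and 751 with every gene of at least 1 count. Among the 8 genes, 3 were called lower by DESeq2 (8.26% of all genes) and 3 by the likelihood ratio test (6.4%). Neither called any of the 8 higher (7.24% and 6.31% of all genes). With every gene of at least 1 count 4 were called, where Matn4 joined Ucma, Prg4 and Cilp. The number of genes tested with that filter is not given here, so these calls cannot be set against a share of all genes. The 3 other scalings, the other filter, limma-voom and both limma-trend fits called 0 of the 8. Each of them also called 0 genes higher and 0 lower over all genes tested. With 1 library left out, 0 to 1297 genes were called higher, 0 to 1105 lower and 0 to 6 of the 8. The 6 were called without osteoarthritis replicate 2, where 4.88% of all genes were called higher and 5.73% lower. Without osteoarthritis replicate 1, 4 of the 8 were called, against 8.16% higher and 6.95% lower, and without either control none was. The cause was not tested.

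With 1 library left out, the log2 fold change ran from -3.58 to 0.39 for Comp, -4.16 to 0.29 for Cilp2, -2.83 to 0.48 for Matn3 and -0.13 to 7.06 for Matn4, so their direction was not stable. It ran from -4.82 to -0.92 for Matn1. List medians ran from -0.997 to 3.37 for relatives, -0.89 to 0.46 for regulators, -0.39 to 0.80 for proteases and -3.57 to -2.25 for other cartilage matrix genes. The regulators' median was 0.33 with limma-voom and 0.49 with limma-trend at a pseudocount of 0.1. The median of all genes was 0.15 with TMM, 0.27 with library size alone and 0.05 with upper quartile factors, and no scaling changed the sign of any of the 8. Of the 24 nearest-gene pairs, 14 were found again on log2 CPM and 2 to 11 with 1 library left out, an alternative added after seeing the data. No paired analysis was possible because the labels carry no replicate number or pairing.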
